A study of Mus musculus with 2 samples.

Results

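Immediate early and ERK response genes were followed in telomerase-deficient mouse embryonic stem cells through 10 members: Fos, Jun, Junb, Egr1, Ier2, Ier3, Atf3, Myc, Dusp6 and Plaur. They were 10 of the 38458 genes in the tables and were selected on their levels in these same libraries, that is on the ratio of their summed counts between both time points. Their ratios are therefore a description of the libraries, and the choice of members fixed part of the direction that follows. Cells of the DKO741 line, which derives from E14 mouse embryonic stem cells and lacks both Terc alleles, were run on inDrops, in which cells are caught in droplets and every transcript copy gets its own barcode, the unique molecular identifier (UMI). PD100 cells were harvested at passage 100 and PD800 cells at passage 800, with 1 library each. Both groups carry the Terc knock-out, so neither is a wild-type control, and both represent 1 line. The stock was maintained on mouse embryonic fibroblast feeders and used feeder-free. With 1 library per time point no test was made, the 95% intervals below cover counting error alone, and the time point cannot be told apart from the preparation of its library.

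Immediate early genes are transcribed within minutes of a stimulus, without the need for new protein. Growth factors such as FGF4 act through receptor tyrosine kinases, RAF and MEK on the kinase ERK, which activates the factors that sit at their promoters. In mouse embryonic stem cells this route is known for moving cells out of naive pluripotency. Fos, Jun and Junb encode subunits of the AP-1 transcription factor, Egr1 encodes a zinc finger transcription factor, and Atf3 encodes a stress-responsive factor that can pair with Jun proteins. Ier2 and Ier3 encode short-lived response proteins. Myc encodes a transcription factor that promotes growth and division, Dusp6 encodes a phosphatase that switches ERK off, and Plaur encodes the receptor of the protease urokinase at the cell surface.

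Promoter sequences of the members that lay at both ends of the range, Plaur and Junb against Dusp6, are shown for reference. RefSeq windows on GRCm38.p6, a patch release of the assembly behind the counts, were matched by symbol for 7 of the 10 members, and Egr1, Ier2 and Myc are named only. In GENCODE M21, Plaur lies at chr7:24462484-24475968 on the + strand, Junb at chr8:84974484-84978718 on the - strand and Dusp6 at chr10:99263231-99267489 on the + strand. Each window holds the 250 bases before the RefSeq start of the gene, which can differ from that of GENCODE (for Junb slightly, for Atf3 by far more), 5′ to 3′ on the strand of the gene. Capitals mark matches, on either strand, to TGANTCA (the AP-1 site), TGACG (the core of the cAMP response element) and GCGNGGGCG (the EGR site). The CArG box, to which serum response factor binds, was searched too.
Plaur (chr7:24462233-24462482, + strand): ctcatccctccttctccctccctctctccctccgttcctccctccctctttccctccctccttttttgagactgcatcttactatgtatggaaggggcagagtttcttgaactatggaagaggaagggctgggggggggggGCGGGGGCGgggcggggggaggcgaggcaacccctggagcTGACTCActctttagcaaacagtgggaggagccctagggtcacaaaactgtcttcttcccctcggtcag
Junb (chr8:84978749-84978998, - strand): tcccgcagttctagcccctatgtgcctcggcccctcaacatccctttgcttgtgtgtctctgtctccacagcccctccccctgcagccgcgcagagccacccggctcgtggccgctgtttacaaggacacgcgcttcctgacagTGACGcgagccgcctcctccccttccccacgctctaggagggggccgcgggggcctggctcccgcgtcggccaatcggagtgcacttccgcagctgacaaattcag
Dusp6 (chr10:99262981-99263230, + strand): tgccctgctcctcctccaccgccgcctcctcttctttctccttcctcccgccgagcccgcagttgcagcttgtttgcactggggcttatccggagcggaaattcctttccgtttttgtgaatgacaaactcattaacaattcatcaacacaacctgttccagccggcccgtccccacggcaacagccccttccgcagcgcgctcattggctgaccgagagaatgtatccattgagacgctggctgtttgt
The Plaur window held an AP-1 site that began 69 bases before the start and an EGR site that began 109 bases before it. Of all 32851 windows of this length, 6.75% held an AP-1 site and 4.70% an EGR site. The Junb window held the core 106 bases before the start, as did the windows of Fos and Atf3 elsewhere, and 17.8% of all windows held it. None of the 7 member windows held a CArG box, which 1.47% of windows held, and the Dusp6, Jun and Ier3 windows held none of the motifs. Bases beyond the 250 of a window, and the promoters of Egr1, Ier2 and Myc, were not searched. A CArG box there would not have been seen. These are matches of letters and not sites of measured binding.

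After barcodes with fewer than 1000 counts or over 20% mitochondrial counts were left out, 814 PD100 cells with 1826233 UMIs and 900 PD800 cells with 2580963 UMIs remained. Median depth was 2151 and 2701.5 UMIs per cell. Levels are given in CPM, the summed UMIs of a library scaled to a common total, and 3 counts correspond to 1.64 CPM in PD100 and 1.16 CPM in PD800. The median mitochondrial share of a cell was 1.23% in PD100 and 4.42% in PD800. Embryonic stem cell markers were present in both libraries. Of 13 with a column none was at 0, and their summed level was 11994 CPM in PD100 and 12686 CPM in PD800, most of it from Dppa5a (8841 and 9676 CPM). Of 12 that reached 50 UMIs, 3 were at least 2-fold higher in PD800, namely Klf4 (67.9 and 219 CPM), Esrrb (31.2 and 89.1 CPM) and Nanog (71.2 and 143 CPM). Extraembryonic endoderm markers summed to 1171 CPM in PD100 and 162.0 CPM in PD800, with 2 of 17 at 0 in PD800. Fibroblast markers summed to 35.6 and 15.9 CPM, with 2 and 3 of 12 at 0. Primed epiblast markers summed to 427 and 66.3 CPM and trophectoderm markers to 205 and 39.9 CPM. Most of the PD100 sums came from keratins, Krt18 (222 and 12.4 CPM) in the first and Krt8 (133 and 17.8 CPM) in the second. The other genes of both lists that reached 50 UMIs were lower in PD800 too. They were Dnmt3b (91.4 and 19.4 CPM) and Otx2 (81.6 and 24.4 CPM) in the first and Tfap2c (40.5 and 13.9 CPM) in the second. Eomes, on both lists, had 4 and 15 UMIs, and T, Cdx2, Elf5 and Hand1 had at most 3 in either library. The 2-cell-like markers summed to 44.9 and 0.387 CPM, with 7 of 8 at 0 in PD800. The part of these differences in the values of the members was not tested. In bulk sums, fewer cells with a transcript and fewer transcripts per cell cannot be told apart. Shares of cells with a UMI are given beside the levels, but at these low counts a share follows the level and does not separate them.

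The members as a group were lower in PD800. Together they had 1623 UMIs in PD100 and 526 in PD800, or 889 CPM (846 to 933) and 204 CPM (187 to 222). The log2 ratio of PD800 over PD100 for this sum was -2.12 (-2.27 to -1.98). In CPM every member had its higher level in PD100, although the direction of Dusp6 turns with the scaling. Ratios were read where both libraries together held 50 UMIs or more of a gene, which 6 of the 10 members reached. Of these, 5 were at least 2-fold lower in PD800, 0 were at least 2-fold higher, and Dusp6 was within 2-fold. Among all 6984 genes that reached 50 UMIs, 16.9% were at least 2-fold lower and 9.22% at least 2-fold higher, and because the members were chosen for this contrast nothing is read from these shares. Taken relative to the median gene, 7.79% of all genes were at least 2-fold lower and 13.9% higher, with 5 and 0 members. The median log2 ratio was -2.42 over the 6 members and -0.34 over all 6984 genes. Since the median gene did not sit at 0, the ratios can also be taken relative to it, and the median of the members was then -2.08.

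**Figure D1:**
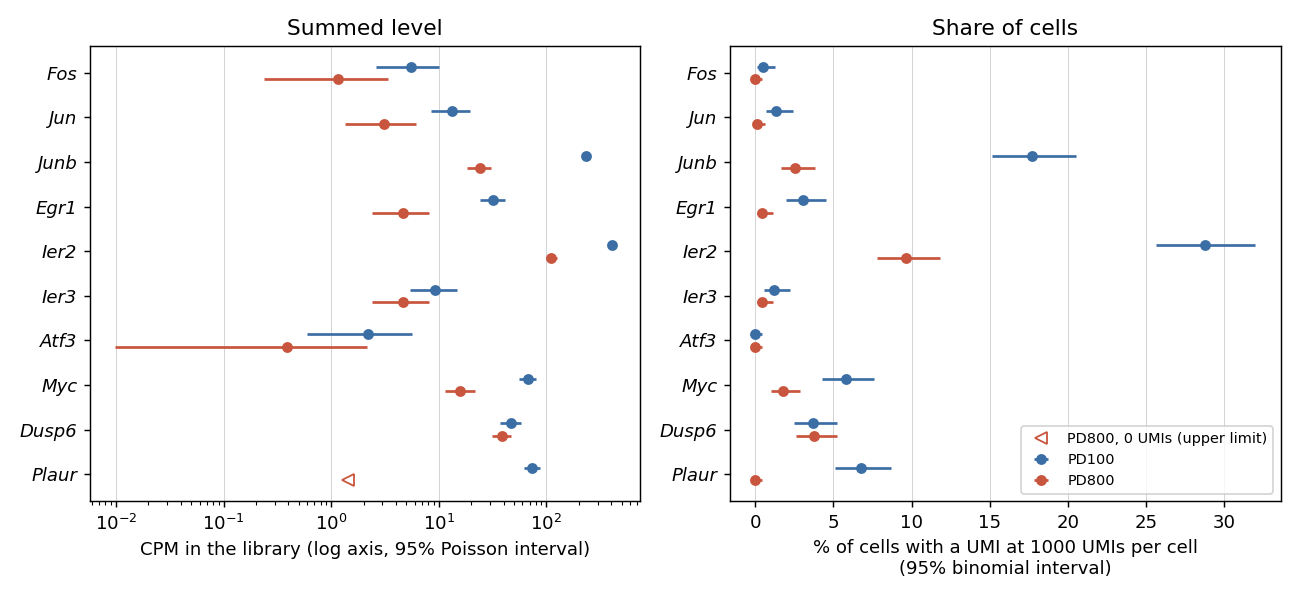
Level of each member in the PD100 and PD800 libraries. On the left, CPM on a log axis with 95% Poisson intervals, where the open triangle is the upper limit for Plaur, which had 0 UMIs in PD800. On the right, the percentage of cells with at least 1 UMI after every cell was thinned to 1000 UMIs, with 95% binomial intervals. Junb stood at 234 CPM in PD100 and 24.0 CPM in PD800, while the Dusp6 points lie close to each other in both panels.

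Among Fos, Jun and Junb, most UMIs in both libraries were of Junb. It had 427 UMIs in PD100 (234 CPM, 212 to 257) and 62 in PD800 (24.0 CPM, 18.4 to 30.8). Its level was 9.73-fold higher in PD100, a log2 ratio of -3.28 (-3.69 to -2.90). At equal depth, with each cell thinned to 1000 UMIs, 17.7% of PD100 cells and 2.56% of PD800 cells had a Junb UMI. Without thinning the shares were 29.0% and 5.56%. Jun had 24 UMIs in PD100 and 8 in PD800, or 13.1 and 3.10 CPM, a log2 ratio of -2.08 (-3.45 to -0.88). Of the 8 PD800 UMIs of Jun, 4 lay in a single cell. Fos was close to the limit of detection, with 10 UMIs in 5 PD100 cells and 3 UMIs in 3 PD800 cells. The Fos ratio, 0.212 on the linear scale or -2.24 on the log2 scale (-4.74 to -0.28), rests on these few counts.

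Egr1 had 58 UMIs in PD100 (31.8 CPM) and 12 in PD800 (4.65 CPM), a log2 ratio of -2.77 (-3.80 to -1.86). At equal depth 3.07% of PD100 cells and 0.444% of PD800 cells had an Egr1 UMI. Atf3 had 4 UMIs in PD100 and 1 in PD800, and the interval of its log2 ratio, -8.12 to 0.84, covers both directions. At this depth no difference in Atf3 was detectable. Its UMIs lay in 3 PD100 cells and 1 PD800 cell.

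Ier2 had the most UMIs of the members in both libraries. It had 742 UMIs in PD100 (406 CPM) and 287 in PD800 (111 CPM), a log2 ratio of -1.87 (-2.07 to -1.67), which is 3.65-fold higher in PD100. At equal depth 28.7% of PD100 cells and 9.67% of PD800 cells had an Ier2 UMI, and without thinning 49.9% and 22.0%. Ier3 was sparse, with 17 UMIs in PD100 and 12 in PD800 (9.31 and 4.65 CPM), and its level in PD800 was 0.499 of that in PD100, with an interval of the log2 ratio from -2.20 to 0.15 that includes 0.

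Myc had 122 UMIs in PD100 (66.8 CPM) and 41 in PD800 (15.9 CPM). The log2 ratio was -2.07 (-2.62 to -1.55), and the share of cells at equal depth was 5.77% in PD100 and 1.78% in PD800. Dusp6, the ERK phosphatase, had 85 UMIs in PD100 (46.5 CPM) and 100 in PD800 (38.7 CPM). Its log2 ratio was -0.26 (-0.70 to 0.17), and 3.69% and 3.78% of cells had a UMI at equal depth. Relative to the median of all genes that reached 50 UMIs its log2 ratio was 0.08, so its direction turns with the scaling. With size factors from the median of ratios it was 0.21.

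Plaur differed most. It had 134 UMIs in 87 PD100 cells (73.4 CPM, 61.5 to 86.9) and 0 UMIs in 900 PD800 cells (0 to 1.43 CPM). With 3 counts in place of 0 the level was at least 63.1-fold lower in PD800, a bound of -5.98 on the log2 scale, and the end of the 95% counting interval was -5.66. At equal depth 6.76% of PD100 cells had a Plaur UMI against 0% of PD800 cells, where 0 of 900 cells allows a share of up to 0.333% by 3 counts and 0.409% by the exact binomial interval. These limit cells with a UMI at this depth and not cells that express the gene. Among PD800 barcodes left out for low counts or mitochondrial share, 2 UMIs of Plaur were found. No cell type known to lack these genes was present, so a background share from free RNA could not be given for the other members.

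Within PD100 the members were unevenly spread over the clusters. Cells were clustered without the members, and the PD100 cells fell into cluster 1 (541 cells), cluster 4 (236 cells, led by H19, Krt7, Krt18, Anxa1, Lgals1, Tagln and Krt8) and 37 extraembryonic endoderm-like cells, in which 16 of 17 endoderm markers were detected at a mean of 0.1 UMI or more. When all genes were ranked, Plaur was itself among the 10 leading genes of cluster 4. Plaur was at 349 CPM (234 to 501) in the endoderm-like cells, 113 CPM (86.2 to 146) in cluster 4 and 37.6 CPM (27.6 to 50.2) in cluster 1. At equal depth a Plaur UMI was seen in 29.7% of endoderm-like cells, 8.90% of cluster 4 and 4.25% of cluster 1. The 37 endoderm-like cells held 21.6% of the Plaur UMIs. Without them Plaur still had 105 UMIs in 777 cells, and in cluster 1 alone it had 46 UMIs in 541 cells, with a bound of -5.02 on the log2 ratio.

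Fos, Jun, Ier3 and Atf3 had too few UMIs for an order to be read. In the endoderm-like cells, cluster 4 and cluster 1, Jun stood at 48.1, 19.2 and 8.18 CPM (4, 10 and 10 UMIs). Ier3 stood at 24.1, 11.5 and 7.37 CPM (2, 6 and 9 UMIs), and Atf3 at 12.0, 1.92 and 1.64 CPM (1, 1 and 2 UMIs). In the endoderm-like cells 3 counts correspond to 36.1 CPM. The members with more UMIs did not share the order of Plaur. Junb was at 363 CPM (313 to 418) in cluster 4, 277 CPM (175 to 415) in the endoderm-like cells and 176 CPM (153 to 201) in cluster 1. Ier2 was at 516 CPM (456 to 582) in cluster 4, 376 CPM (343 to 412) in cluster 1 and 156 CPM (83.3 to 267) in the endoderm-like cells. Myc followed the order of Ier2, with 97.9, 56.5 and 24.1 CPM, the last from 2 UMIs. Egr1 had 0 UMIs in the endoderm-like cells, where the interval reached 44.4 CPM, and was at 42.2 CPM in cluster 4 and 29.5 CPM in cluster 1. Dusp6 was at 59.5 CPM (40.4 to 84.4) in cluster 4 and 41.7 CPM (31.1 to 54.9) in cluster 1, intervals that overlap. All 10 Fos UMIs lay in cluster 1, in 5 cells. At 0 UMIs the interval of Fos in cluster 4 reached 7.08 CPM, so no limit to cluster 1 is read from this.

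**Figure D2:**
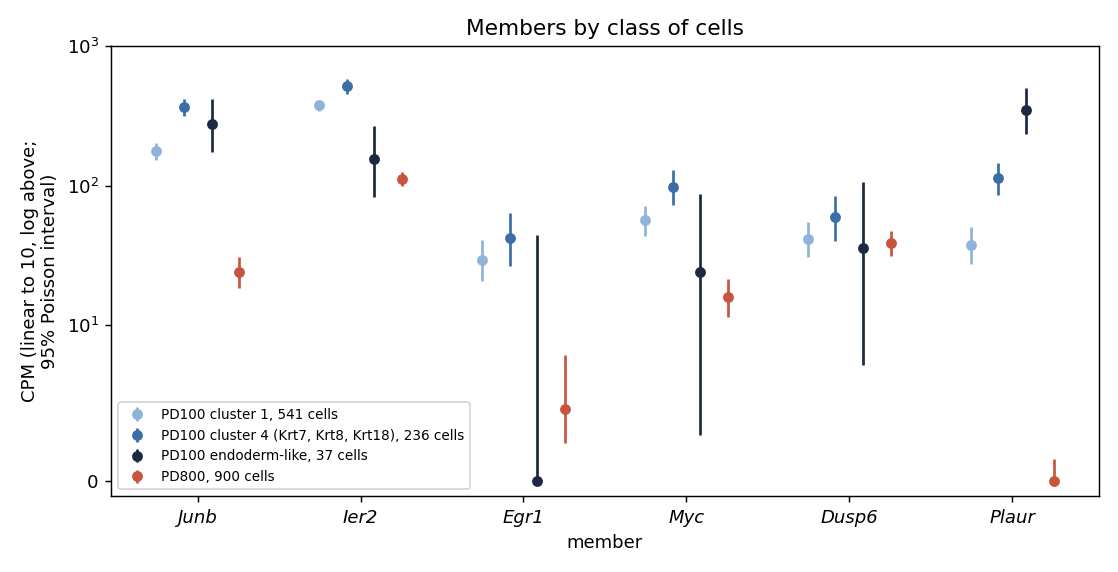
CPM of 6 members in the 3 classes of PD100 cells and in all PD800 cells, with 95% Poisson intervals. The vertical axis is linear up to 10 CPM and logarithmic above. Plaur was highest in the 37 endoderm-like cells (349 CPM) and had 0 UMIs in PD800, and Junb and Ier2 were highest in cluster 4 (363 and 516 CPM).

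Cluster 1 alone, compared with all PD800 cells, gave log2 ratios of -2.87 for Junb, -2.66 for Egr1, -1.76 for Ier2, -1.83 for Myc and -0.11 for Dusp6. Summed over the members, cluster 1 stood at 743 CPM (696 to 793), cluster 4 at 1224 CPM (1131 to 1323) and the endoderm-like cells at 926 CPM (731 to 1158). The PD800 clusters 2, 3 and 5 stood at 233 CPM (206 to 263), 174 CPM (152 to 199) and 224 CPM (161 to 302). Every PD100 class was thus above every PD800 cluster in this sum, but not in each member. Of the 77 member UMIs in the endoderm-like cells, 29 were Plaur and 23 Junb. The interval of Ier2 there (83.3 to 267 CPM) overlapped that of PD800 cluster 2 (96.4 to 137 CPM). Egr1 had 0 UMIs there, and Dusp6 stood at 36.1 CPM (3 UMIs) against 49.7 CPM in PD800 cluster 2. Within PD800, Junb was at 34.0 CPM (24.2 to 46.5) in cluster 2 and 13.6 CPM (7.94 to 21.8) in cluster 3, while Ier2 varied little, from 101 to 115 CPM. PD100 cells with a UMI of S100a6 or Krt17 held a Plaur UMI at equal depth in 13 of 128 cases (10.2%, 5.52 to 16.7), against 42 of 686 other cells (6.12%, 4.45 to 8.19). PD100 cells with a Lefty1 or Lefty2 UMI held one in 3 of 126 cases (2.38%, 0.494 to 6.80), against 52 of 688 (7.56%, 5.70 to 9.79). The intervals overlap in both comparisons, and the endoderm-like cells were not left out of either.

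At equal depth 431 of 814 PD100 cells (52.9%, 49.5 to 56.4) and 159 of 900 PD800 cells (17.7%, 15.2 to 20.3) had a UMI of at least 1 member. Without thinning the shares were 73.8% and 36.0%. At least 2 distinct members were seen in 109 PD100 cells (13.4%) and 10 PD800 cells (1.11%). The product of the single shares, as if each member were seen in cells without regard to the others, gives 110.4 and 9.99 cells. The most distinct members in a cell was 4, in 2 PD100 cells. The members were thus seen together about as often as their single shares give.

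**Figure D3:**
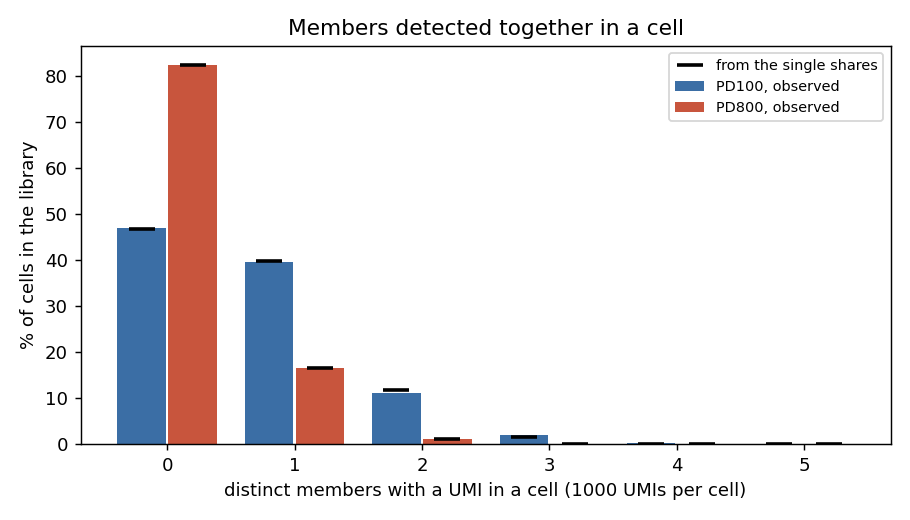
Percentage of cells in each library by the number of distinct members with a UMI, after thinning to 1000 UMIs per cell. Bars are the observed cells and black marks the product of the single shares, which lie at nearly the same heights. The bar of PD100 cells with exactly 2 members stands at 11.2%.

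Correlations between members over cells were weak. Pearson's r was computed on log2(1 + UMIs) of thinned cells, for members that reached 50 UMIs in a library. All points of a library share its preparation, and most pairs had a UMI of both in few cells. In PD100, with 6 members and 15 pairs over 814 cells, the median r was 0.029 and the range -0.058 to 0.176. Over pairs of all 4774 genes that reached 50 UMIs in PD100 the median r was -0.003, and 95% of pairs lay between -0.058 and 0.077. The highest pair was Junb with Egr1 (0.176), seen together in 10 cells where the product of shares gives 4.42. A single cell held 23 member UMIs in 1084 UMIs, of which 16 were Junb and 4 Egr1, and without it r was 0.083. In PD800 only Junb, Ier2 and Dusp6 reached 50 UMIs. Their 3 pairs over 900 cells had r from -0.032 to 0.076, with a median of -0.009.

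**Figure D4:**
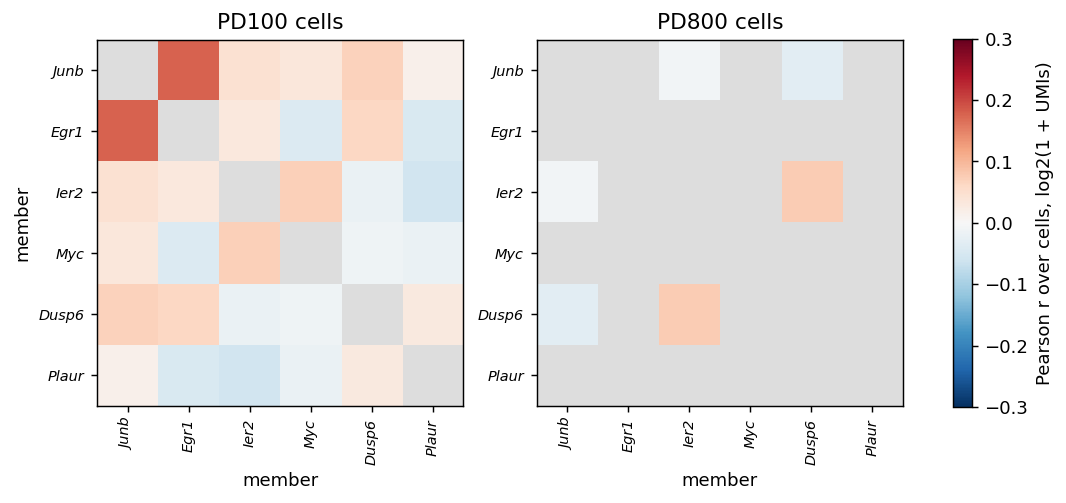
Pearson's r between pairs of members over the cells of each library, on log2(1 + UMIs) after thinning to 1000 UMIs. Grey squares are a member with itself or pairs in which a member had fewer than 50 UMIs in that library. The PD100 range is -0.058 to 0.176, with Junb and Egr1 highest.

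The Fano factor at equal depth, the variance over the mean, was 2.30 for Junb in PD100, where a Poisson count gives 1, and 1.50 without the single cell with 23 member UMIs. In PD800 it was 0.976, at a much lower mean that brings the factor close to 1 by itself, so no difference in spread is read from these values. The factor was 1.59 in PD100 and 1.66 in PD800 for Egr1, 1.39 and 1.17 for Ier2, 1.26 and 1.40 for Myc, and 1.55 and 1.07 for Dusp6. The cells in the top 5% by member UMIs without thinning, 41 in PD100 and 45 in PD800, held 20.1% and 31.9% of all member UMIs. A lower mean raises this share by itself, so no difference between the libraries is read from it. The cells with the most member UMIs held 23 in PD100 and 6 in PD800, the latter all Ier2.

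The genes whose cell-to-cell pattern in PD100 was most like that of Plaur were Rnpep (r = 0.26), Col4a1 (r = 0.22) and Tfpi (r = 0.20), over 814 cells. Of these Col4a1 is an endoderm marker, and both were seen in 11 cells. For the other members the closest genes reached lower or similar values in few cells, such as Calu with Egr1 (r = 0.21, both seen in 3 cells) and Rce1 with Junb in PD800 (r = 0.20, both seen in 6 cells). For the summed members, Zfp644 (0.15) and Pkm (0.15) were closest in PD100 and Cmtm6 (0.15) in PD800. In sparse counts such values are no finding.

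Genes of the same programme outside the members were uneven. Among 25 other immediate early genes, 13 reached 50 UMIs, of which 5 were at least 2-fold lower in PD800, 0 higher and 8 within 2-fold, with a median log2 ratio of -0.86. Cyr61, a secreted matrix protein, had 58 UMIs in PD100 and 4 in PD800 (log2 ratio -4.36, -6.28 to -2.92), Ctgf, of the same family, 50 and 8 (-3.14), and the AP-1 subunit Jund 176 and 76 (-1.71). Zfp36l1 and Btg1, chosen after their values were seen, had log2 ratios of 0.54 and 0.82. Of 18 feedback and target genes of ERK, 11 reached 50 UMIs, of which 6 were at least 2-fold lower and 0 higher, with a median of -1.91. Over all genes that reached 50 UMIs these shares were 16.9% and 9.22%. Both lists, like the members, were chosen with earlier results of these data known, so nothing is read from these shares. The MAP kinase phosphatases led the list of ERK feedback and target genes. Dusp4 had 57 and 6 UMIs (-3.75, -5.25 to -2.54), Dusp5 44 and 6 (-3.37) and Dusp1 71 and 15 (-2.74). Dusp6, of the same family, lay at -0.26. The ERK inhibitors Spry2 (0.20) and Spred2 (0.07) and the ERK target factor Etv5 (0.07), chosen after their values were seen, were near 0 like Dusp6, whereas the inhibitor Spry4 was at -0.82 (-1.33 to -0.31) and the related factor Etv4 was at -2.27.

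**Figure D5:**
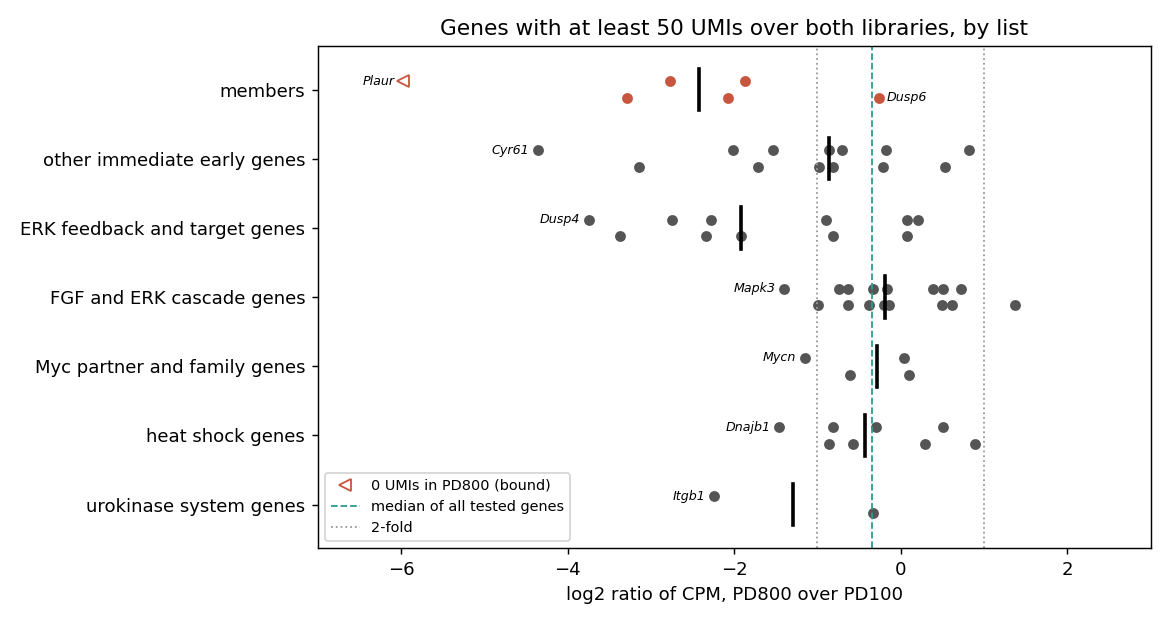
Log2 ratio of CPM, PD800 over PD100, for genes that reached 50 UMIs in both libraries combined, by list. Each point is a gene, black bars are list medians, the open triangle is the bound of Plaur, the dashed line is the median of all 6984 genes (-0.34) and dotted lines mark 2-fold. Medians are -2.42 for the members, -1.91 for ERK feedback genes and -0.18 for cascade genes.

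The upstream cascade differed less. Of 34 FGF and ERK cascade genes, 16 reached 50 UMIs, with a median log2 ratio of -0.18. Of these, 1 was at least 2-fold lower in PD800, 1 at least 2-fold higher and 14 within 2-fold. Among all genes with 50 UMIs or more, 16.9% were at least 2-fold lower and 9.22% higher. The lower gene was Mapk3, which encodes ERK1, with 149 and 80 UMIs (-1.40). Of 13 urokinase system genes, which surround Plaur, only 2 reached 50 UMIs. These were Itgb1, an integrin, with 174 and 52 UMIs (-2.24), and Serpine2, with 74 and 83 UMIs (-0.33, -0.80 to 0.14). Plau, the urokinase that Plaur binds, was below that limit with 1 and 0 UMIs. Of 10 heat shock genes 8 reached 50 UMIs, with a median of -0.43, and Dnajb1 was at least 2-fold lower (-1.46). Of 10 Myc partners 4 reached 50 UMIs, with a median of -0.28, and Mycn, the related factor that embryonic stem cells also express, had 393 and 250 UMIs (-1.15).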

How the data were processed

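Counts were taken as deposited: the authors mapped reads with the inDrops pipeline to a transcriptome built from GRCm38/mm10, and each value is a raw count of UMIs per barcode and gene. The annotation release is not given in the sources used here. Barcodes with fewer than 1000 UMIs or over 20% mitochondrial UMIs were left out, which kept somewhat more cells than the study states. Counts were summed per library and scaled to CPM. Levels were given exact Poisson intervals, shares exact binomial intervals and ratios exact conditional (Clopper-Pearson) intervals, all at 95%. A library at 0 UMIs was given 3 counts, and the ratio is then a bound. Cells were thinned to 1000 UMIs without replacement (random seed 1). Scrublet, run in Scanpy 1.11.5, called 9 PD100 and 25 PD800 doublets. They were kept, and an alternative leaves them out. Clustering used scikit-learn 1.9.0 and python-igraph 0.11.9 with the members left out of the variable genes. Barcodes shared by both tables numbered 21, of which 8 passed the filter in both. The endoderm-like name rests on marker lists, and clusters were rebuilt here. All members are described, and other genes were named from each list as up to 3 at each end by the interval bound nearer to 0. Genes most like a member were the 3 with the highest r. The members and lists were chosen with earlier results of these data known. The steps were tested on Poisson counts simulated from the pooled levels of both libraries, for 7015 genes. In these, 95.9% of the intervals held the true ratio. The intervals themselves assume Poisson counts, so this checks the computation and not how well they suit these libraries. All columns of values were used (0 left out). In all 39 alternatives were set and 8 added after seeing the data. A gene of the cascade list is not reported here by name. Promoter windows came from RefSeq on GRCm38.p6. Python 3.11.15, SciPy 1.17.1 and NumPy 2.4.6 were used.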

Additional observations from a re-analysis of the deposited data

Results flagged for a closer look

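Barcodes left out by the cell filter, which no comparison above uses, held the members too. In PD100 these 477 barcodes had 204 member UMIs of 246800, or 827 CPM, and in PD800 the 766 barcodes had 95 of 458381, or 207 CPM. The interval of the log2 ratio of the sum was -2.36 to -1.64, and single members gave -2.70 for Junb, -1.80 for Ier2 and -2.05 for Myc. Plaur had 14 UMIs in the PD100 barcodes and 2 in the PD800 barcodes (-3.70, -6.88 to -1.58), whereas it had 0 UMIs in the PD800 cells. Dusp6 had 3 and 15 UMIs there, a log2 ratio of 1.43 with an interval from -0.39 to 3.86. What these barcodes hold was not tested.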

How the results depend on the processing

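Every member but Dusp6 kept its direction in the alternatives that gave it a value, and Dusp6 kept it in 7 of 10. The median log2 ratio of the members lay between -2.58 and -1.79 in 12 alternatives. The count of members at least 2-fold lower, 5 as reported, was 3 when PD100 was limited to cluster 1, where 4 members reached 50 UMIs, 2 in the left-out barcodes alone and 2 with a minimum of 200 UMIs, and 7 with a minimum of 20 UMIs. Fewer members reach the minimum in each of the first 3. The limits to cluster 1 and to left-out barcodes were chosen after seeing the data. The share of cells with any member, 52.9% in PD100 and 17.7% in PD800, was 73.8% and 36.0% without thinning, 73.1% and 28.7% at 2000 UMIs per cell (465 and 651 cells, with 349 and 249 left out), and 48.1% when PD100 was limited to cluster 1. Deeper cells hold more UMIs of any gene by construction. The median r between members ranged from 0.009 to 0.037 in PD100 and from -0.026 to 0.033 in PD800. Cells of median depth 2151 and 2701.5 UMIs limit what can be read from Fos, Jun, Ier3 and Atf3. No paired analysis was possible because each time point has 1 library.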
